A study of Mus musculus with 4 samples.

Results

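Aminoacyl-tRNA synthetase genes were followed in cultured mouse neural progenitor cells after knockdown of Rybp, a partner of the catalytic subunits of Polycomb repressive complex 1. The genes were chosen by symbol among the protein-coding rows of the deposited table, as the synthetase names of the cytosolic and mitochondrial enzymes together with the scaffold genes Aimp1 and Aimp2. The rule found 40 genes of the 13881 in the table, of which 21 encode cytosolic enzymes or their subunits, 17 encode mitochondrial enzymes and 2 encode scaffold proteins. The shRybp group held 2 libraries of progenitors infected with a lentivirus that expressed a short hairpin RNA against Rybp, and the ctrl group held 2 libraries whose shRNA is labelled ctrl, with no vector named. All cells came from the forebrain of C57BL/6 embryos at embryonic day 14 and were kept proliferating in medium with 2% B27, EGF at 20 ng/ml and FGF-2 at 20 ng/ml. Nothing in the labels says that replicates were separate cultures, embryos or infections, so p-values speak only to the spread among these 4 libraries, and that spread may be technical.

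Each synthetase joins 1 amino acid to the tRNAs that read its codons, in a reaction that uses ATP, and so supplies the ribosome with charged tRNA. Mammalian cells keep separate enzymes for the cytosol and for mitochondria, nearly all encoded by different nuclear genes, and the enzymes fall into structural classes I and II with unrelated catalytic folds. Several cytosolic enzymes sit together with the scaffold proteins AIMP1, AIMP2 and AIMP3 in a multi-synthetase complex. Many cytosolic synthetase genes are known targets of ATF4, the transcription factor of the amino acid response, and dividing cells such as neural progenitors need the enzymes for protein synthesis.

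Total counts were 14355308 and 16400480 in the shRybp libraries and 17598873 and 15938646 in the ctrl libraries. Rybp had 3.01 and 2.66 FPKM (fragments scaled to gene length and library size) in shRybp, against 4.43 and 3.95 in ctrl, so 65.8% of the transcript remained (edgeR log2 fold change -0.60, SE 0.12, adjusted p = 0.0017). The cells carried the progenitor transcripts Nes, at 244 and 236 FPKM in shRybp and 149 and 145 in ctrl, and Sox2, at 98.3 and 102 FPKM in shRybp and 138 and 130 in ctrl. Of 9 progenitor markers 8 were tested, 2 rose and 3 fell, and their summed level was 2350 to 2440 FPKM in shRybp against 2780 to 3040 in ctrl. Most of that sum was Fabp7, which fell, with 1470 and 1350 FPKM in shRybp against 2210 and 1980 in ctrl. Sox2 and Msi1 fell too, whereas Nes and Vim rose, Vim with 583 and 614 FPKM in shRybp against 498 and 472 in ctrl. The sum thus does not give the direction of the list as a whole. Of 6 astrocyte markers 6 fell in shRybp, with a summed level of 195 to 209 FPKM against 355 to 371 in ctrl. Of 6 oligodendrocyte lineage markers 4 fell, Gpr17 to 17.6%, Sox10 to 25.2%, Pdgfra to 41.7% and Cnp to 57.6% of ctrl. Their list summed to 305 to 319 FPKM in shRybp against 368 to 371 in ctrl. Most of this was Olig2, which did not pass, with 267 and 286 FPKM in shRybp and 294 and 287 in ctrl. Of all genes tested 16.3% rose and 16.7% fell, by the threshold given in the next paragraph. Of 6 neuron markers 5 were tested, and 1 rose (Syt1, 1.64-fold) and 2 fell (Dcx to 43.1% and Snap25 to 72.5% of ctrl). They summed to 64.1 to 70.8 FPKM in shRybp and 71.9 to 72.1 in ctrl. Most of this was Map2, which did not pass, with 57.3 and 50.9 FPKM in shRybp and 60.7 and 59.1 in ctrl. Of 6 microglia markers 2 were in the table and of 4 endothelial markers 1, all below the level tested, and of 5 fibroblast and pericyte markers 0 were in it. These shifts of progenitor, glial and neuron markers ran beside every result that follows, and their part in it was not tested. In bulk RNA fewer cells of a type and less RNA per cell cannot be told apart.

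Transcripts of the cytosolic enzymes were mostly higher in shRybp, by modest amounts. Of the 21 genes 12 rose and 2 fell, where a gene is said to rise or fall when its adjusted p was below 0.05 in edgeR's quasi-likelihood test across all 12062 genes with a mean of at least 1 FPKM. Of all genes tested, 16.3% rose and 16.7% fell. The median log2 fold change of the cytosolic genes was 0.20, against 0.0033 over all genes tested, and the rises lay between 0.19 and 0.51, that is between 14% and 42% above ctrl. In 17 of the 21 genes both shRybp libraries lay above both ctrl libraries, as in 33.8% of all genes, and in 2 both lay below, as in 33.2% of all genes. Summed over the 21 genes the level was 619.7 and 622.7 FPKM in shRybp, against 531.5 and 526.6 FPKM in ctrl. FPKM values are scaled to library totals, whereas the fold changes come from counts with TMM scaling, so these scales differ slightly.

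**Figure D1:**
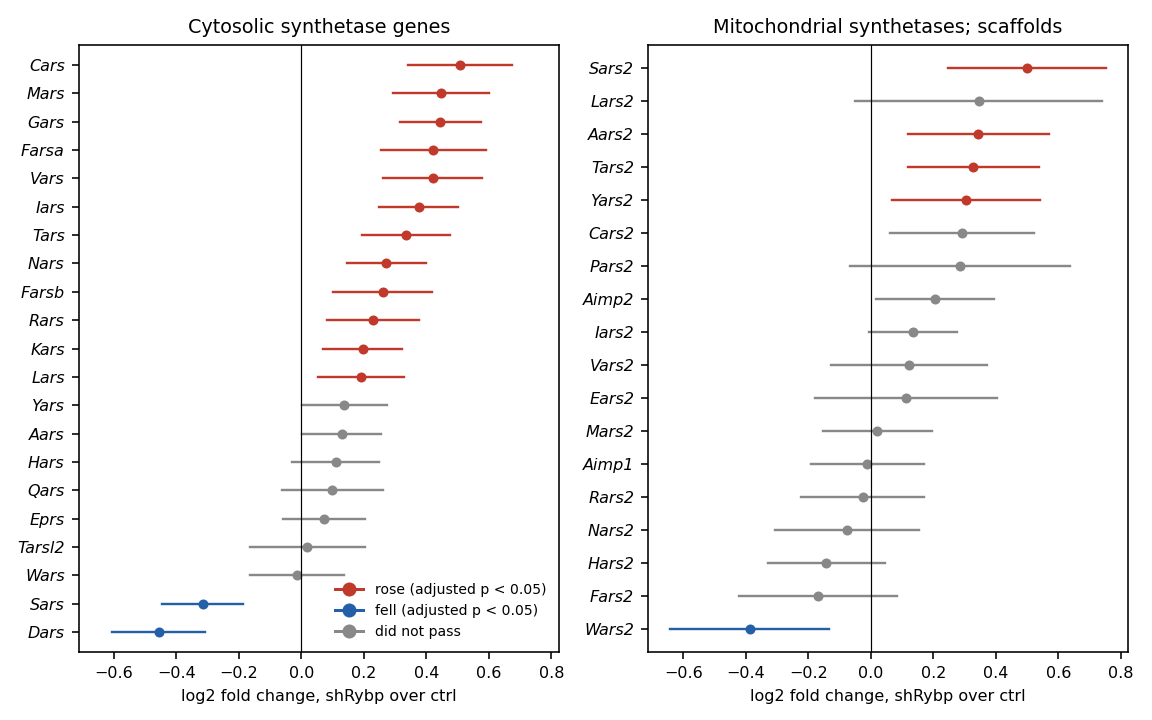
Log2 fold change of shRybp over ctrl for each gene (point) with its 95% interval (line) from edgeR; 21 cytosolic synthetase genes on the left, mitochondrial synthetase genes with Aimp1 and Aimp2 on the right. Of the cytosolic genes 12 lie to the right as rises and Sars and Dars lie to the left as falls, while most mitochondrial genes have intervals that reach 0.

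Cars, the cysteinyl-tRNA synthetase gene (ENSMUSG00000010755, mm10 chromosome 7, 143557230 to 143600090), rose most. It had 10.4 and 10.1 FPKM in shRybp, against 7.07 and 6.97 FPKM in ctrl, with a log2 fold change of 0.51 (standard error 0.08, adjusted p in edgeR = 0.00032). Both shRybp libraries were high and the groups stood well apart, at 1.42-fold.

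Gars encodes the glycyl-tRNA synthetase, and this gene supplies both the cytosol and mitochondria from alternative start codons (ENSMUSG00000029777, mm10 chromosome 6, 55038007 to 55079500). It was the most abundant of the 40 transcripts per length, at 68.1 and 68.1 FPKM in shRybp and 49.6 and 48.0 FPKM in ctrl. The log2 fold change was 0.44 (standard error 0.06, adjusted p in edgeR = 0.00014), and the libraries of a group differed by far less than the groups. Kars, the lysyl enzyme and the other gene that serves both compartments, came next in level with 57.5 and 56.4 FPKM in shRybp and 48.8 and 48.2 FPKM in ctrl. Its rise was smaller (edgeR log2 fold change 0.20, SE 0.06, adjusted p = 0.021), and the call was lost when any 1 of the 4 libraries was left out (adjusted p 0.054 to 0.12).

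Mars, which encodes the methionyl-tRNA synthetase that also charges the initiator tRNA (ENSMUSG00000040354, mm10 chromosome 10, 127296221 to 127311786), had 36.0 and 40.6 FPKM in shRybp, against 27.1 and 27.9 FPKM in ctrl. The log2 fold change was 0.45 (standard error 0.07, adjusted p in edgeR = 0.00048). Both shRybp libraries were above ctrl, shRybp 2 the more so. The gene ends tail to tail with Ddit3 on the opposite strand, with which it shares 68 bases, and Ddit3 went the other way, with 3.45 and 3.62 FPKM in shRybp and 4.87 and 4.86 FPKM in ctrl (edgeR log2 fold change -0.49, adjusted p = 0.026, lost under 5 of 12 alternatives). The labels do not say whether reads were counted by strand, so those in the shared bases cannot be assigned to either gene.

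Vars, for valine, had 25.3 and 28.7 FPKM in shRybp and 18.9 and 20.4 FPKM in ctrl (edgeR log2 fold change 0.42, SE 0.07, adjusted p = 0.00084). Iars, for isoleucine, had 40.9 and 41.3 FPKM in shRybp and 30.6 and 31.2 FPKM in ctrl (edgeR log2 fold change 0.38, SE 0.06, adjusted p = 0.00039). Tars, for threonine, had 19.9 and 19.2 FPKM in shRybp and 15.3 and 15.0 FPKM in ctrl (edgeR log2 fold change 0.34, SE 0.07, adjusted p = 0.0019). For each of these genes the groups did not overlap, and the call held under all 13 alternatives. Nars, for asparagine, was the third most abundant member and rose as well, with 47.8 and 47.8 FPKM in shRybp against 38.6 and 38.6 FPKM in ctrl (edgeR log2 fold change 0.27, SE 0.06, adjusted p = 0.0036). Rars, for arginine, rose by a log2 fold change of 0.23 and Lars, for leucine, by 0.19, with adjusted p-values of 0.02 and 0.036 in edgeR. Rars lost the call without shRybp 1 (adjusted p = 0.11) and without ctrl 2 (0.16), and Lars lost it when any 1 library was left out (0.054 to 0.21) and in DESeq2 (0.093).

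The cytosolic phenylalanyl enzyme is built from the catalytic subunit encoded by Farsa and the second subunit encoded by Farsb, and both genes rose. Farsa had 15.2 and 16.5 FPKM in shRybp, against 11.5 and 11.5 FPKM in ctrl (edgeR log2 fold change 0.42, SE 0.08, adjusted p = 0.0012). Farsb had 33.9 and 34.1 FPKM in shRybp, against 28.9 and 26.5 FPKM in ctrl (edgeR log2 fold change 0.26, SE 0.07, adjusted p = 0.016). Farsb was the more abundant of the pair in every library. Its call was lost without ctrl 2 (log2 fold change 0.19, adjusted p = 0.13), without shRybp 1 (0.055) and without shRybp 2 (0.072).

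The 2 cytosolic genes that fell were Dars and Sars. Dars, the aspartyl enzyme of the multi-synthetase complex (ENSMUSG00000026356, mm10 chromosome 1, 128363707 to 128417368), had 22.6 and 20.8 FPKM in shRybp, against 29.5 and 28.5 FPKM in ctrl. Its log2 fold change was -0.46 (standard error 0.07, 95% interval -0.61 to -0.31, adjusted p in edgeR = 3.0e-04). Sars, the seryl enzyme, which also puts serine on the selenocysteine tRNA (ENSMUSG00000068739, mm10 chromosome 3, 108424865 to 108445209), had 28.3 and 27.8 FPKM in shRybp, against 34.0 and 34.2 FPKM in ctrl. Its log2 fold change was -0.32 (standard error 0.06, 95% interval -0.45 to -0.19, adjusted p in edgeR = 0.0015). Both shRybp libraries lay below both ctrl libraries for either gene, and both falls held under all 13 alternatives, which also called no other cytosolic gene lower.

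**Figure D2:**
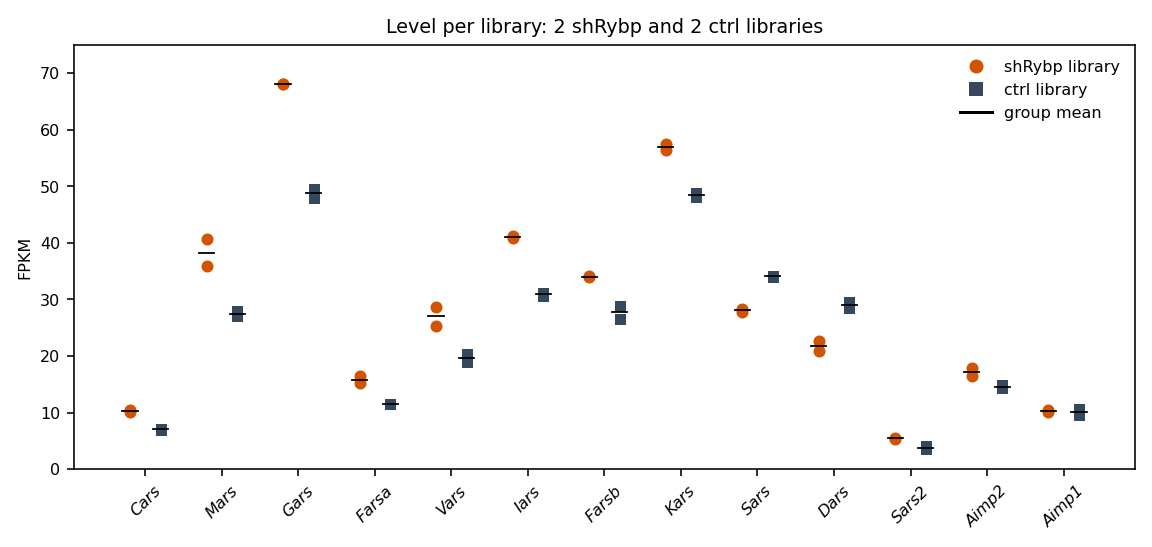
FPKM in each library (y axis, linear from 0) for 13 genes on the x axis, with shRybp libraries as circles left of ctrl libraries as squares and a bar at each group mean. Cars, Mars, Gars, Farsa, Vars, Iars, Farsb and Kars have both circles above both squares, Sars and Dars have both below, and the Aimp1 groups overlap.

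The other 7 cytosolic genes did not pass the test. Aars, for alanine, had a log2 fold change of 0.13 (95% interval 0.0032 to 0.26, edgeR adjusted p = 0.11) and Yars, for tyrosine, 0.14 (0.0023 to 0.27, adjusted p = 0.11), and both passed with library totals in place of TMM. Hars, for histidine, was the fourth most abundant member, with 40.9 and 42.1 FPKM in shRybp and 37.4 and 37.7 FPKM in ctrl (edgeR log2 fold change 0.11, adjusted p = 0.22). Qars (0.10), Eprs (0.07) and Tarsl2 (0.02) had smaller log2 fold changes, as did Wars, the interferon-inducible tryptophanyl enzyme gene (-0.01, 95% interval -0.16 to 0.14). Aars overlaps Exosc6, which is not in the table, on its own strand, and Tarsl2 overlaps Tm2d3 on its own strand, so their counts are less certain. Genes that rose have such overlaps too. Farsb shares 1479 bases with 4833412K13Rik on its own strand and 2315 with Sgpp2 on the opposite strand. Lars shares 438 bases with Rps19-ps4 and Cars 556 with Gm15580, both on the opposite strand.

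Within the cytosol the rises were found in and outside the complex and in both classes. The counts below stand beside 16.3% of all genes tested that rose and 16.7% that fell. Of the 8 enzyme genes of the multi-synthetase complex 5 rose (Mars, Iars, Rars, Kars and Lars), Dars fell, and Eprs, the fused glutamyl and prolyl enzyme, and Qars, the glutaminyl enzyme, did not pass. Of the 13 genes outside it 7 rose and Sars fell, with a median log2 fold change of 0.26 against 0.19 inside the complex. Of 9 class I genes 6 rose, and of 11 class II genes 6 rose and 2 fell, with Eprs holding a domain of each class. The scaffold genes did not pass in edgeR, although 1 of the 2 had an unadjusted p below 0.05. Aimp2 had 16.5 and 17.8 FPKM in shRybp and 14.3 and 14.8 FPKM in ctrl (edgeR log2 fold change 0.20, SE 0.09, adjusted p = 0.092). The groups did not overlap, and limma on log2(FPKM + 1) called it (adjusted p = 0.047) while DESeq2 did not (0.35). Aimp2 overlaps Eif2ak1 on the opposite strand by 1548 bases. Aimp1 had 10.4 and 10.1 FPKM in shRybp and 10.6 and 9.54 FPKM in ctrl (edgeR log2 fold change -0.01, 95% interval -0.19 to 0.17, adjusted p = 0.94). The gene of the other scaffold, Eef1e1, which encodes AIMP3, was likewise level, with 13.4 and 13.9 FPKM in shRybp and 13.8 and 11.9 FPKM in ctrl (log2 fold change 0.06, 95% interval -0.15 to 0.26).

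Promoter letters are shown for 4 cytosolic genes that rose and held a known regulatory motif. The 250 bases before the start of 30 of the 40 genes were read from the RefSeq table on GRCm38.p6, and those with no window read include Cars, Hars, Hars2, Lars, Nars, Pars2, Rars, Vars and Wars. Both strands were searched for TGATGNAA, the core of the amino acid response element that ATF4 binds with its partners, and for CACGTG, the E-box bound by MYC among others. Capitals mark the motif in each sequence, written 5′ to 3′ on the strand of the gene, where TTGCATCA and TTTCATCA are TGATGNAA read on the other strand.
Gars, chr6:55037931-55038000, plus strand: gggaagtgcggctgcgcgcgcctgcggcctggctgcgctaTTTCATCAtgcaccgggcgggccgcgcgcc
Tars, chr15:11399659-11399728, minus strand: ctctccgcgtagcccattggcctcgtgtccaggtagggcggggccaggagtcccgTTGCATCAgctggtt
Iars, chr13:49682031-49682100, plus strand: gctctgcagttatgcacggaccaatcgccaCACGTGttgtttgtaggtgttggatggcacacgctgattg
Farsb, chr1:78488898-78488967, minus strand: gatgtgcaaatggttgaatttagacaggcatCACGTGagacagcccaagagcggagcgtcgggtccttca
TGATGNAA was found in 3 of the 14 cytosolic genes with a window and in 0 of the 14 mitochondrial ones. It was in 3.45% of the 32851 windows of the RefSeq table. The match began 30 bases before the RefSeq start in Gars and 15 in Tars. CACGTG was found in 3 of the 14 cytosolic and 0 of the 14 mitochondrial genes with a window, against 6.02% of all windows. The units differ, as synthetase and scaffold genes were counted per gene and 2 of them had more than 1 window. The shares over all windows were not limited to genes tested here. Of the 7 cytosolic genes that rose and had a window, 2 held TGATGNAA and 2 held CACGTG, and of the 7 others, not shown, 1 held each. Among tested genes of the amino acid response list with a window, TGATGNAA was in 1 of 9 that rose, 0 of 6 that fell and 3 of 12 that did not pass.

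Mitochondrial synthetase genes were lower in level, and 5 of the 17 passed the test. Their mean over the 4 libraries ran from 1.97 to 14.6 FPKM with a median of 4.66, against 4.88 to 58.5 FPKM with a median of 25.6 for cytosolic genes. Of 17 genes 4 rose and 1 fell, beside 16.3% and 16.7% of all genes tested, and the median log2 fold change was 0.12, or 0.04 without shRybp 2. The counts of the cytosolic and mitochondrial groups were not tested against each other. Both shRybp libraries lay above both ctrl libraries in 8 of the 17 genes, beside 33.8% of all genes, and below in 3, beside 33.2% of all genes. With counts between 125 and 2337 in a library, against 483 to 5489 for cytosolic genes, the standard errors of their log2 fold changes were 0.06 to 0.18, against 0.06 to 0.08.

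Sars2, the mitochondrial seryl enzyme gene (ENSMUSG00000070699, mm10 chromosome 7, 28741992 to 28753871), rose most among them. It had 5.37 and 5.58 FPKM in shRybp, against 3.49 and 4.08 FPKM in ctrl, with a log2 fold change of 0.50 (standard error 0.12, 95% interval 0.25 to 0.75, adjusted p in edgeR = 0.0058). It was the mitochondrial rise that held under every alternative run, 12 in number. The others were Aars2 (log2 fold change 0.34), Tars2 (0.33) and Yars2 (0.30), for alanine, threonine and tyrosine, with edgeR adjusted p-values of 0.023, 0.02 and 0.049. Each stood apart from ctrl in both libraries, yet each lost the call under 5 or 6 alternatives. Without shRybp 2 their log2 fold changes were 0.20, 0.24 and 0.22 (adjusted p 0.31, 0.14 and 0.34), and DESeq2 called 0 of the 3 (adjusted p 0.10, 0.071 and 0.23).

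Wars2, for tryptophan, was the mitochondrial gene that fell, with 2.01 and 1.93 FPKM in shRybp, against 2.55 and 2.49 FPKM in ctrl (edgeR log2 fold change -0.39, SE 0.12, adjusted p = 0.023). The libraries of each group were close together and did not overlap, but DESeq2 did not call it (adjusted p = 0.14), nor did 5 other alternatives, among them the fits without shRybp 1, shRybp 2 or ctrl 1. Of the 12 that did not pass, Cars2 came closest (edgeR log2 fold change 0.29, adjusted p = 0.052) and passed under 5 of 12 alternatives. Ears2, whose glutamyl enzyme also starts the indirect route to glutaminyl-tRNA in mitochondria, had a log2 fold change of 0.11 (95% interval -0.18 to 0.40). Iars2, the most abundant of the mitochondrial group, had 0.14 (-0.0044 to 0.28), and Rars2, Mars2 and Nars2 lay between -0.08 and 0.02. Pars2 (0.29) and Vars2 (0.12) were above 0, and Hars2 (-0.14) and Fars2 (-0.17) were below. Among overlaps with other genes of the table, Fars2 shares 40258 bases with Gm46409 on its own strand. On the opposite strand Cars2 shares 984 bases with Naxd, and Iars2 shares 2034 with Rab3gap2. Whether reads were counted by strand is not known, so the counts of Cars2 and Iars2 are less certain. The overlap of Fars2 does not depend on the strand setting. It was measured over whole genes with introns, and Gm46409 is annotated as sense intronic, so the effect on Fars2 counts is not known.

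Lars2, the mitochondrial leucyl enzyme gene, had the widest interval of the 40. It had 6.79 and 11.3 FPKM in shRybp, against 5.89 and 8.08 FPKM in ctrl (edgeR log2 fold change 0.34, 95% interval -0.05 to 0.74, adjusted p = 0.17). The second library of each group was high, and the groups overlapped. Its value turned on the library left out in edgeR: the log2 fold change was 0.66 without shRybp 1 (adjusted p = 0.00039) and 0.58 without ctrl 2 (0.0015), but -0.07 without shRybp 2 (0.75) and 0.14 without ctrl 1 (0.50). Non-coding loci chosen after their values were seen ranked the libraries in a similar way. Gm42418, a locus on chromosome 17 known to collect ribosomal RNA reads, had 543 and 1055 FPKM in shRybp and 303 and 572 FPKM in ctrl, and Gm23935 on chromosome 16 had 1171 and 2221 FPKM in shRybp and 525 and 1240 FPKM in ctrl. The mitochondrial 12S ribosomal RNA gene mt-Rnr1 had 132 and 156 FPKM in shRybp and 147 and 146 FPKM in ctrl, and the 16S gene mt-Rnr2 had 214 and 217 FPKM in shRybp and 245 and 202 FPKM in ctrl, highest in ctrl 1 where Lars2 was lowest. The part of ribosomal RNA reads in the Lars2 value was not tested.

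**Figure D3:**
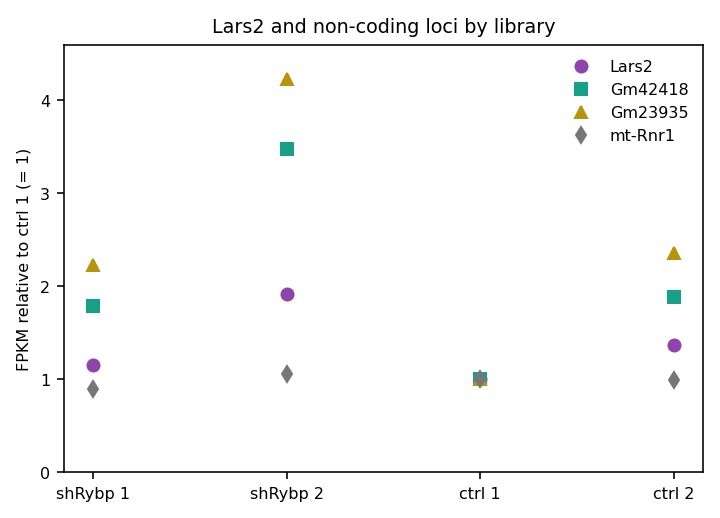
FPKM of Lars2, Gm42418, Gm23935 and mt-Rnr1 in the 2 shRybp and 2 ctrl libraries, each divided by its value in ctrl 1. For Lars2, Gm42418 and Gm23935 the highest point is shRybp 2 and the lowest is ctrl 1, while mt-Rnr1 stays near 1.

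The cytosolic and mitochondrial enzymes of 1 amino acid were set side by side. Of 14 amino acids compared, with an enzyme gene in both groups (Farsa and Tars standing for the phenylalanine and threonine enzymes), both genes rose for threonine alone, the cytosolic gene alone rose for 8 and the mitochondrial gene alone rose for 3. Of all genes tested 16.3% rose. These counts rest on the threshold, as Cars2 missed it at an adjusted p of 0.052 in edgeR beside the rise of Cars. Aars2, Tars2 and Yars2, counted here as rises, each lost the call under 5 or 6 alternatives. The log2 fold change was higher for the cytosolic gene in 10 of the 14. Glutamate and proline were not among the 14, since Eprs serves both in the cytosol. The log2 fold change of Eprs (0.07) was below those of Ears2 (0.11) and Pars2 (0.29), and none of these genes passed the test. Serine was split, as Sars fell by 0.32 on the log2 scale while Sars2 rose by 0.50, with intervals that lie on either side of 0. For methionine, Mars rose by 0.45 while Mars2 had a log2 fold change of 0.02 (95% interval -0.15 to 0.20). The differences within pairs were not tested. Rank correlations between level and log2 fold change were weak in both groups, with a Spearman rho of 0.13 across the 21 cytosolic and 0.24 across the 17 mitochondrial genes, which share the same 4 libraries.

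**Figure D4:**
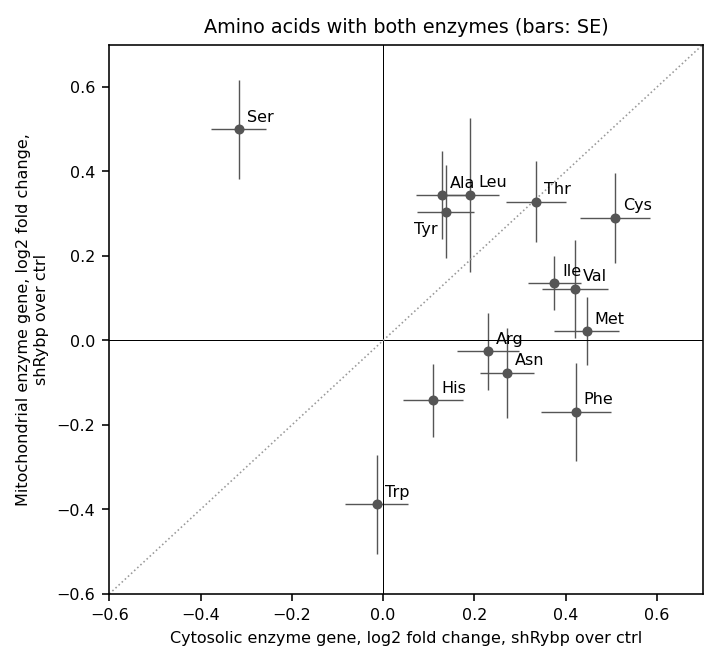
Log2 fold change of shRybp over ctrl of the cytosolic enzyme gene (x axis) and the mitochondrial enzyme gene (y axis) for 14 amino acids. Bars are 1 SE, and both are equal on the dotted line. Glutamate and proline, which share Eprs in the cytosol, are not plotted. Serine lies at the upper left with a fall of Sars and a rise of Sars2, and 10 of the 14 points lie below the dotted line.

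Other genes of the amino acid response moved in both directions. Of 35 listed genes that the table holds, 32 were tested, and 12 rose and 6 fell, beside 16.3% and 16.7% of all genes tested, with a median log2 fold change of 0.14. Atf4 had 72.2 and 68.0 FPKM in shRybp, against 58.9 and 57.8 FPKM in ctrl (edgeR log2 fold change 0.23, SE 0.06, adjusted p = 0.014), and lost the call without shRybp 1 (adjusted p = 0.11) and without ctrl 2 (0.076). Those that rose most were Mthfd2, a mitochondrial folate enzyme gene (log2 fold change 1.02), the amino acid transporter genes Slc1a5 (0.84) and Slc7a1 (0.70), Eif4ebp1 (0.61), which encodes a repressor of translation initiation, and the asparagine synthetase gene Asns (0.60). Asns had 24.9 and 24.4 FPKM in shRybp, against 15.4 and 16.3 FPKM in ctrl, and the groups stood apart. Those that fell included the alanine aminotransferase gene Gpt2 (-0.81), the glycine transporter gene Slc6a9 (-0.80) and the stress genes Ddit4 (-0.73) and Ddit3 (-0.49). Chac1, Nupr1 and Atf3 were below the level tested.

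**Figure D5:**
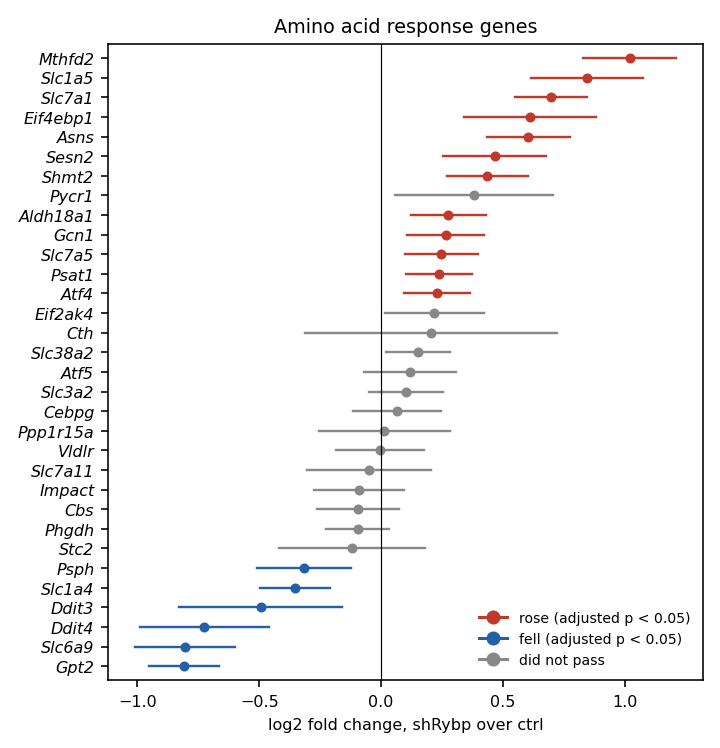
Log2 fold change of shRybp over ctrl (point) with its 95% interval (line) from edgeR for the 32 tested genes of the amino acid response list. Mthfd2, Slc1a5 and Slc7a1 lead the 12 that rose, and Gpt2, Slc6a9 and Ddit4 lead the 6 that fell.

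Few genes that make, trim, proofread or hand on tRNA passed the test. Of 63 listed genes that the table holds, 60 were tested, and 5 rose and 5 fell, 8.33% in each direction beside 16.3% and 16.7% of all genes, with a median log2 fold change of 0.06. Those that rose were Polr3g (log2 fold change 0.56) of RNA polymerase III, Pop1 (0.49) of the RNase P and MRP enzymes that trim tRNA and ribosomal RNA, the selenophosphate synthetase gene Sephs2 (0.41), the selenocysteine elongation factor gene Eefsec (0.30) and Gtf3c5 (0.29), a subunit of transcription factor TFIIIC. Those that fell were Trnau1ap (-0.67), whose product binds the selenocysteine tRNA, the RNase P subunit gene Rpp30 (-0.50), the D-aminoacyl-tRNA deacylase gene Dtd1 (-0.30), Hsd17b10 (-0.28) of mitochondrial RNase P and Polr3k (-0.23). Myc, a regulator of growth genes, had 44.7 and 45.8 FPKM in shRybp, against 39.6 and 38.1 FPKM in ctrl (edgeR log2 fold change 0.18, SE 0.06, adjusted p = 0.043), and lost the call under 6 alternatives, DESeq2 (adjusted p = 0.12) and each fit that left out 1 library (0.063 to 0.23) among them.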

How the data were processed

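RNA of 2 shRybp and 2 ctrl libraries was measured by sequencing. The authors deposited 1 table with raw read counts per gene and, beside them, FPKM values that the authors scaled by gene length and library size, per the file headers. The build was mm10, per the submitters' processing notes, and no source used here gives the aligner, counter or strand setting. Each of the 13881 genes listed has a total of at least 40 counts. Of these, 12062 with a mean of at least 1 FPKM were tested in edgeR 4.0.16 (R 4.3.3) with TMM scaling, a quasi-likelihood fit without covariates, a two-sided test and Benjamini-Hochberg adjustment over all of them, and all 40 synthetase and scaffold genes passed that filter. Standard errors are the absolute log2 fold change over the square root of F, and intervals are 95%. Alternatives used DESeq2 1.42.0, limma 3.58.1 on log2 of FPKM plus 1 or 0.1, other scalings and filters, a replicate block, and each library left out. Coordinates are the table's, with chromosome and strand from GENCODE M21, where 39 of the 40 genes had the same start and end. Promoters are RefSeq's on GRCm38.p6, and Mars was matched through its RefSeq synonym. Protein sequences were not used here, so the planned search for class signature motifs was not made. The values of 1 mitochondrial gene and the sequence of 1 promoter window are counted in the totals but not reported here, and that gene is left out of the comparison of pairs and the plots. The rule for named genes was every member, with values per library for the 8 largest changes, the 4 highest levels, Farsa, Farsb, Aimp1 and Aimp2, and up to 10 called genes per list plus Atf4, Myc, Eef1e1 and Rybp; values per library of other genes were added after seeing them. Members and lists were chosen with earlier results of these data known.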

Additional observations from a re-analysis of the deposited data

How the results depend on the processing

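Over 510 values of the 40 genes under 13 alternatives, 0 called changes turned direction, 36 lost the call and 17 gained it. The cytosolic counts stayed between 8 and 14 rises and at 2 falls, the cytosolic median between 0.17 and 0.23, and the mitochondrial median between 0.04 (without shRybp 2) and 0.18. Lars2, not called as reported, turned to -0.07 without shRybp 2. Over all genes tested, 1970 rose and 2013 fell as reported, 1371 and 1447 in DESeq2, and 2361 and 1718 with library totals. In limma 1982 rose and 1442 fell with a pseudocount of 1, and 1978 and 1444 with 0.1. With a minimum of 5 FPKM, 1448 rose and 1551 fell of 7952 genes. Mitochondrial rises and falls, 4 and 1 as reported, were 1 and 0 in DESeq2 and 2 and 0 in limma with either pseudocount. Mitochondrial counts were 1 and 0 with a minimum of 5 FPKM, where 8 genes were left to test. With 1 library left out they ran from 1 to 5 rises and from 0 to 1 falls, and rises of all genes from 1296 (without shRybp 2) to 1640, against 1970. Replicate numbers are shared by the groups but nothing says that they pair libraries, and deviations of same-numbered libraries correlated at 0.10. With a replicate block 14 cytosolic and 7 mitochondrial genes rose, and 9 tRNA partner genes rose and 8 fell, while calls over all 12062 genes also grew, to 2676 higher and 2652 lower, against 1970 and 2013. Lars2 was among those called with the block (log2 fold change 0.32, edgeR adjusted p = 0.00039). The tRNA partner list otherwise had 8 rises with library totals, 3 rises with the minimum of 5 FPKM, 2 falls in DESeq2, and 3 to 6 rises and 2 to 5 falls with 1 library left out. Amino acid response genes kept 9 to 14 rises and 4 to 6 falls. The causes were not tested. Mitochondrial genes had 125 to 2337 counts in a library, and their standard errors ran up to 0.18, that of Lars2.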
